A study of Rattus norvegicus with 2 samples.

Results

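The cytokines of inflammation and the transforming growth factors beta (TGF-beta) were compared between HIP rats and nondiabetic wild-type rats. HIP rats are transgenic for human IAPP, islet amyloid polypeptide, a peptide that beta cells release with insulin and that forms amyloid deposits. The set held 10 genes, Il1b, Il1a, Il1rn, Il18, Tnf, Il6, Il10, Tgfb1, Tgfb2 and Tgfb3, of 35561 gene names and identifiers on the array. They were taken by gene symbol, not by any measured value. They were measured by 13 of the 41012 gene probes, and by 58 of the 43379 gene spots of each array. Each of the 10 genes was found under its present symbol.

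On each of 2 two-colour rat arrays, amplified cDNA of 1 HIP extract in Cy5 was hybridised together with that of 1 wild-type extract in Cy3, 4 extracts in all. Each array therefore gave 1 ratio of HIP over wild type for each probe, and n = 2 arrays throughout. No dye swap was made, and the effects of genotype and dye cannot be told apart. Both arrays lay on 1 slide. The labels give neither the tissue nor the age or sex of the rats, nor the promoter of the transgene, nor do they state whether the 2 extracts of a genotype came from separate animals. The p-values then reflect how far the 2 ratios of a probe differed, together with a typical spread drawn from all tested probes. Both come from these 4 extracts alone, and part or all of the spread may be technical. In material of this kind, fewer cells of a type and less RNA per cell cannot be told apart.

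Interleukin 1 (IL-1) is the cytokine most closely tied to islet inflammation. Macrophages make IL-1 beta as a precursor that caspase-1 cuts in the inflammasome, and aggregates of human IAPP are known to provoke its release. IL-1 beta and tumour necrosis factor (TNF) are toxic to beta cells in culture, whereas the IL-1 receptor antagonist blocks the receptor. IL-10 restrains macrophages. The TGF-beta proteins also restrain immune cells and drive stellate cells of the pancreas to lay down matrix.

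None of the cytokine probes passed the test. A probe was tested where, on each array, the scanner software called it well above background in 1 dye or both, which held for 12 probes of 9 genes but not for the Il6 probe. With limma and Benjamini-Hochberg adjustment over the 33651 probes tested, the lowest adjusted p of the 12 was 0.942, which was also the lowest of all probes. At an adjusted p under 0.05, 0% of all probes were called higher and 0% lower. At an unadjusted p under 0.05 stood 1099 probes (3.27%) in either direction, with 1 cytokine probe, the brighter of the 2 for Il1b, among them. Where a gene had 2 probes, (a) marks the brighter and (b) the other. For 1 probe over 2 arrays, the smallest p of an exact sign-flip test is 0.5. The values below are therefore descriptions of these 4 extracts.

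The directions were mixed. Of the 12 tested probes, 3 were higher in HIP on both arrays, against 26.9% of all tested probes. A further 5 were lower in HIP on both arrays, against 22.9% of all probes, and 4 had opposite signs, against 50.2%. At least 2-fold on both arrays, 0 cytokine probes were higher in HIP, against 2.57% of all probes, and 1 was lower, against 2.44%. That probe measured Il1b. The median of the 12 mean log2 ratios was -0.10, and the median of all tested probes was 0.02. Between the arrays, the ratios of all probes had a Pearson r of -0.0084 across probes, which are not independent replicates.

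**Figure D1:**
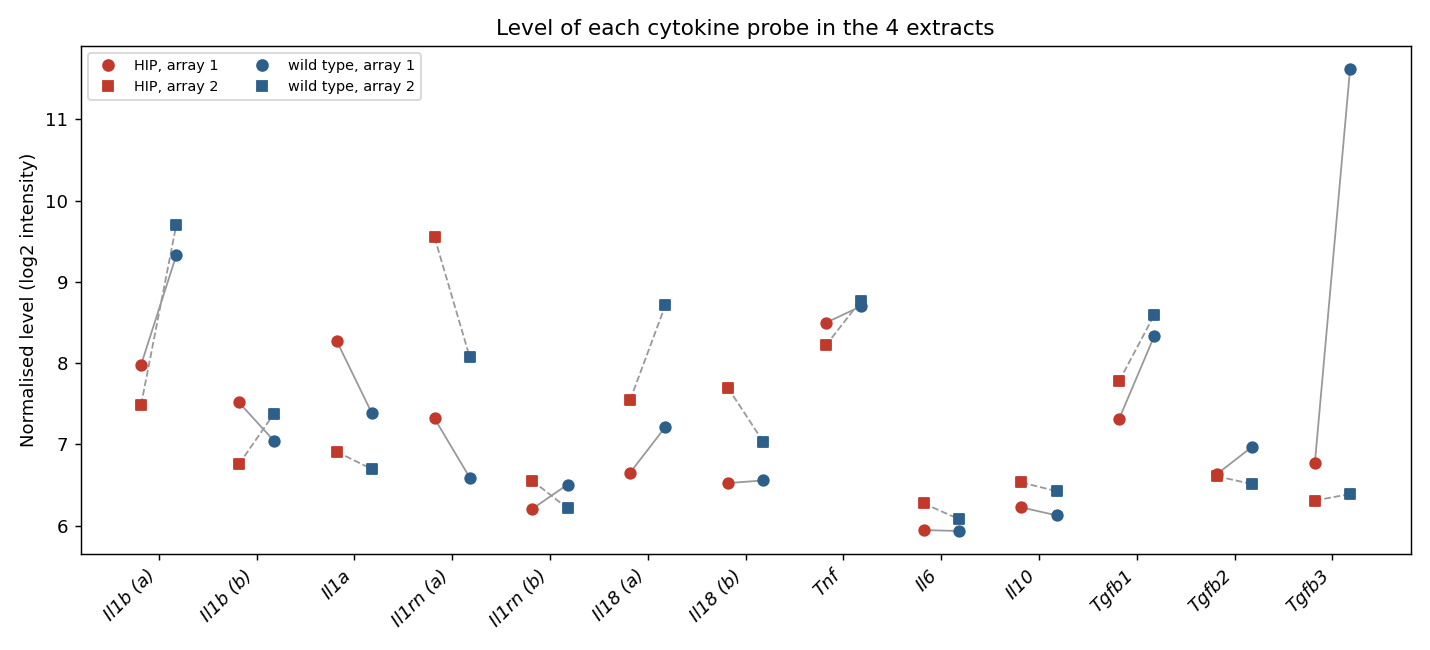
Normalised level (log2 intensity, vertical axis) of each of the 13 probes in the 4 extracts, with HIP left of wild type, circles for array 1 and squares for array 2. Lines join the 2 extracts of an array, and (a) and (b) mark the brighter and the other probe of a gene. Levels can be compared only within a probe. For Il1b (a), Tnf and Tgfb1 both HIP points lie below both wild-type points, and the wild-type point of Tgfb3 on array 1 stands alone at 11.62.

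Il1b, which encodes IL-1 beta, was lower in both HIP extracts by the brighter probe, Il1b (a) (A_43_P14911), which is printed on 10 spots. Its normalised log2 level was 7.98 and 7.49 in HIP 1 and HIP 2, against 9.33 and 9.70 in wild type 1 and wild type 2. The 2 genotypes did not overlap, and the 2 extracts of a genotype differed by 0.49 in HIP and 0.38 in wild type. The HIP level was 0.393 times the wild-type level on array 1 and 0.215 times on array 2. Without dye normalization the log2 ratios were -0.37 and -0.55, less than 2-fold on both arrays. The mean log2 ratio was -1.78 ± 0.61 (SD, n = 2), with a 95% interval in limma of -3.36 to -0.21. Its unadjusted p in limma was 0.0375 and its adjusted p was 0.942. All 10 spots were well above background in all 4 extracts. In the scanner's processed signals, the median of its spots was 966 and 552 units in HIP, against 2639 and 4075 units in wild type.

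The second probe of Il1b (A_44_P230320), on 1 spot, gave no such difference. Its level was 7.52 and 6.75 in HIP, against 7.04 and 7.38 in wild type, and the genotypes overlapped. HIP was the higher extract on array 1 and the lower on array 2, with log2 ratios of 0.48 and -0.62. The mean was -0.07 ± 0.78, with an interval of -1.80 to 1.65 and an adjusted p in limma of 0.999. By the positions in the array files, 191 bases lie between the 2 probes of Il1b. The means of the 2 probes differed by 1.71.

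Il1a encodes IL-1 alpha, which acts through the same receptor without needing caspase-1. Its level was 8.27 and 6.91 in HIP, against 7.38 and 6.69 in wild type. HIP was the higher extract on both arrays, by 0.89 and 0.21, although median centring gave 0.99 and -0.16, and the genotypes overlapped. The gap between the 2 HIP extracts, 1.36, was larger than either ratio. The mean log2 ratio was 0.55 ± 0.48, with an interval of -0.92 to 2.02 and an adjusted p in limma of 0.942.

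Il1rn, which encodes the IL-1 receptor antagonist, had the highest mean ratio of the set. Its brighter probe (A_44_P462661) had a level of 7.32 and 9.55 in HIP, against 6.59 and 8.07 in wild type. HIP was the higher extract on both arrays, by 0.73 and 1.48, or 1.66 and 2.78 times the wild-type level. The genotypes overlapped, because both extracts of array 2 were brighter than both of array 1. The gap between extracts was 2.23 in HIP and 1.48 in wild type, as large as or larger than the ratios. The mean log2 ratio was 1.10 ± 0.53, with an interval of -0.40 to 2.61 and an adjusted p in limma of 0.942. With the scanner's processed signals the ratios were 1.60 and 1.79, so that this probe was then at least 2-fold higher in HIP on both arrays.

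The other probe of Il1rn (A_44_P112890) was dim. Its level was 6.21 and 6.55 in HIP, against 6.50 and 6.21 in wild type, and wild type 2 was not well above background. HIP was the lower extract on array 1 and the higher on array 2, with log2 ratios of -0.30 and 0.34. The mean was 0.02 ± 0.45, with an interval of -1.43 to 1.47. With the scanner's processed signals the ratios were further apart, at -0.88 and 2.31, with a mean of 0.72. The 2 probes lie 2598 bases apart, and the positions of the dim one span 1035 bases of the genome.

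Il18 encodes IL-18, another cytokine that caspase-1 cuts. Its brighter probe (A_44_P531414) had a level of 6.65 and 7.55 in HIP, against 7.21 and 8.71 in wild type. HIP was the lower extract on both arrays, by log2 ratios of -0.56 and -1.17, although without dye normalization the mean turned to 0.24. The genotypes overlapped, and the gap between the 2 wild-type extracts was 1.50. The mean log2 ratio was -0.86 ± 0.43, with an interval of -2.30 to 0.57 and an adjusted p in limma of 0.942.

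The other Il18 probe (A_44_P161233) went the other way on array 2. Its level was 6.52 and 7.70 in HIP, against 6.55 and 7.03 in wild type, with ratios of -0.03 and 0.66 and overlapping genotypes. The mean was 0.32 ± 0.49, with an interval of -1.16 to 1.79 and an adjusted p in limma of 0.974. The means of the 2 probes, 15511 bases apart, differed by 1.18.

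Disagreement between probes of 1 gene was common on these arrays. Of the 3060 genes with 2 or more tested probes, the 2 brightest probes had the same sign in 52.6% on array 1 and in 50.8% on array 2. The ratios of such probe pairs had a Pearson r of 0.138 and 0.084 across genes. The median difference between their means was 0.70, against 1.71 for Il1b, 1.08 for Il1rn and 1.18 for Il18. Among pairs in which each probe was well above background in all 4 extracts, 2409 genes remained and the shares were 52.6% and 51.1%.

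**Figure D2:**
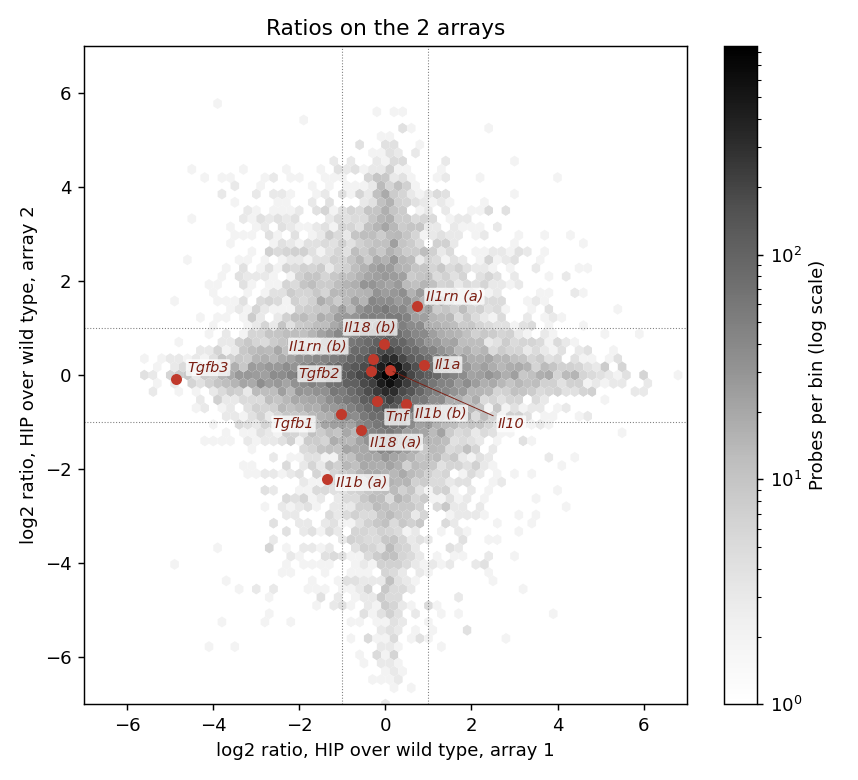
Log2 ratio of HIP over wild type on array 1 (horizontal axis) and array 2 (vertical axis). Grey bins hold all 33651 tested probes, with darker bins holding more, red points are the 12 tested cytokine probes, and dotted lines mark 2-fold. Il1b (a) is the one cytokine point beyond 2-fold on both arrays, at -1.35 and -2.22, and Tgfb3 is far from 0 on array 1 alone.

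Tnf encodes TNF, an early cytokine of macrophages. Its probe (A_43_P11513) had a level of 8.50 and 8.22 in HIP, against 8.70 and 8.77 in wild type. Both HIP extracts lay below both wild-type extracts, by log2 ratios of -0.20 and -0.55, although without dye normalization the mean turned to 0.93. The mean log2 ratio was -0.38 ± 0.25, with an interval of -1.72 to 0.97 and an adjusted p in limma of 0.950. All 10 spots were well above background in all 4 extracts. The scanner's own p for the ratio of a spot was under 0.01 for 0 of 10 spots on array 1 and for 10 of 10 on array 2.

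Il6 encodes IL-6, which signals through gp130 and STAT3, and its probe (A_44_P371339) was not measured well enough to be tested. Of its 10 spots, 0 in HIP 1, 5 in HIP 2, and 0 in each wild-type extract were well above background. The normalised level was 5.94 and 6.27 in HIP, against 5.93 and 6.08 in wild type. In processed signals the median spot had 9.55 and 49.7 units in HIP, against 11.2 and 19.2 units in wild type. The highest of the 4 was HIP 2, the one extract with any spot well above background. No fold is given for Il6.

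Il10 encodes the anti-inflammatory IL-10, and its probe (A_44_P384213) was well above background in HIP but not in wild type. In HIP 1 and HIP 2, 7 and 10 of its 10 spots were well above background, against 2 and 1 in wild type 1 and wild type 2. The level was 6.22 and 6.53 in HIP, against 6.12 and 6.42 in wild type. The mean HIP level was 1.07 times the mean wild-type level, with an adjusted p in limma of 0.998. The interval of the log2 ratio in limma was -1.19 to 1.40. Each wild-type level was no lower than the lowest signal called well above background in its extract. The fold is therefore not a lower bound, and it is open to dye bias. The log2 ratios were 0.10 and 0.11, and centring on the array median in place of loess turned the mean to -0.41. With the scanner's processed signals the ratios were larger, at 0.67 and 0.52, and in the authors' deposited table they were 0.48 and 0.44.

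Tgfb1 encodes TGF-beta 1, the main form in immune cells. Its probe (A_42_P522899) had a level of 7.31 and 7.78 in HIP, against 8.34 and 8.60 in wild type. Both HIP extracts lay below both wild-type extracts, by log2 ratios of -1.02 and -0.82, although without dye normalization the mean turned to 0.30. The HIP level was 0.492 and 0.567 times the wild-type level. The gap between extracts was 0.46 in HIP and 0.26 in wild type, both smaller than the ratios. The mean log2 ratio was -0.92 ± 0.15, with an interval of -2.23 to 0.39 and an adjusted p in limma of 0.942. In processed signals the median spot had 508 and 642 units in HIP, against 1192 and 1499 units in wild type. The scanner's p was under 0.01 for 10 of 10 spots on each array, a level that 54.7% of all gene spots reached on array 1 and 50.1% on array 2.

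Tgfb2 encodes TGF-beta 2. Its probe (A_44_P246538) had a level of 6.63 and 6.61 in HIP, against 6.97 and 6.51 in wild type, with overlapping genotypes. The ratios were -0.34 and 0.10, and the mean was -0.12 ± 0.31, with an interval of -1.49 to 1.25. The scanner's processed signals were 179 and 148 units in HIP, against 306 and 135 units in wild type.

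Tgfb3, which encodes TGF-beta 3, had the most uneven values of the set. Its probe (A_44_P125025), on 1 spot, had a level of 6.76 and 6.31 in HIP, against 11.62 and 6.39 in wild type. Wild type 1 alone was high, and the other 3 extracts lay between 6.31 and 6.76 in normalised level. The gap between the wild-type extracts was 5.23, against 0.46 between the HIP extracts. The ratios were -4.86 and -0.08, and the mean of -2.47 ± 3.38 rested on array 1. In processed signals the spot had 317 and 76.5 units in HIP, against 15699 and 137 units in wild type. By these signals the log2 ratios were -5.63 and -0.84. The interval was -7.57 to 2.64 and the adjusted p in limma 0.942.

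Across the set, 3 of the 12 tested probes, Il1b (a), Tnf and Tgfb1, had both HIP extracts below both wild-type extracts, against 15.1% of all tested probes. None had both HIP extracts above both wild-type extracts, against 15.8%. The scanner's processed signals, which are also dye-normalized, gave the same 3 probes and likewise 0 probes higher. Without dye normalization the mean log2 ratio was -0.46 for Il1b (a), but 0.93 for Tnf and 0.30 for Tgfb1. All 3 were printed on 10 spots. Of the 217 tested probes printed on 10 spots, 16.6% were lower in this way and 13.4% higher, and their median log2 ratio was 0.01.

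The 10 spots of a probe show how much of the spread lay within an array. On array 1 the spots of Il1b (a) ran from -1.42 to -1.29 (SD 0.045 over 9 spots), and on array 2 from -2.40 to -2.08 (SD 0.095 over 9 spots). The arrays differed by 0.87 in mean. For Tgfb1 the spots ran from -1.14 to -0.84 on array 1 and from -0.98 to -0.60 on array 2. For Tnf they ran from -0.26 to -0.14 and from -0.66 to -0.47. The Il1b (a) and Tnf spots of the 2 arrays therefore did not overlap, whereas those of Tgfb1 did. Over the 217 probes, the median spot SD was 0.074 on array 1 and 0.082 on array 2, and the median difference between the arrays was 0.85. Repeated spots share the labelled cDNA of 1 pair of extracts and are not replicates of a genotype.

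**Figure D3:**
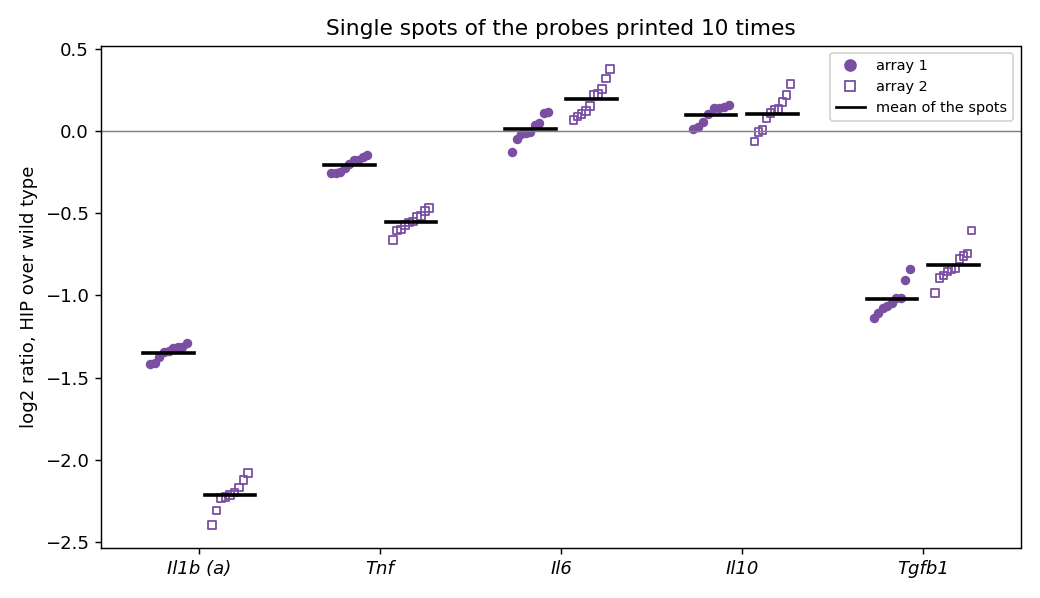
Log2 ratio of HIP over wild type (vertical axis) for each single spot of the 5 probes printed on 10 spots, with filled circles for array 1, open squares for array 2 and a bar at the mean; outlier spots are left out. After loess, every spot of Il1b (a), Tnf and Tgfb1 lies below 0, and the 2 arrays stand apart for Il1b (a) and Tnf.

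The authors' deposited table of log ratios was turned here from log10 to log2, and the second probes of Il1b and Il1rn were not matched in it. In the authors' deposited table the Il1b probe stood at -0.63 and -2.45, so its difference on array 1 was smaller than 2-fold. Tgfb1 stood at -1.22 and -1.23 in the authors' deposited table, and the brighter Il18 probe at -1.12 and -1.70, each at least 2-fold lower in HIP on both arrays. Il1rn stood at 0.68 and 1.87 in the authors' deposited table. The sources used here do not give how that table combined several probes of a transcript.

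**Figure D4:**
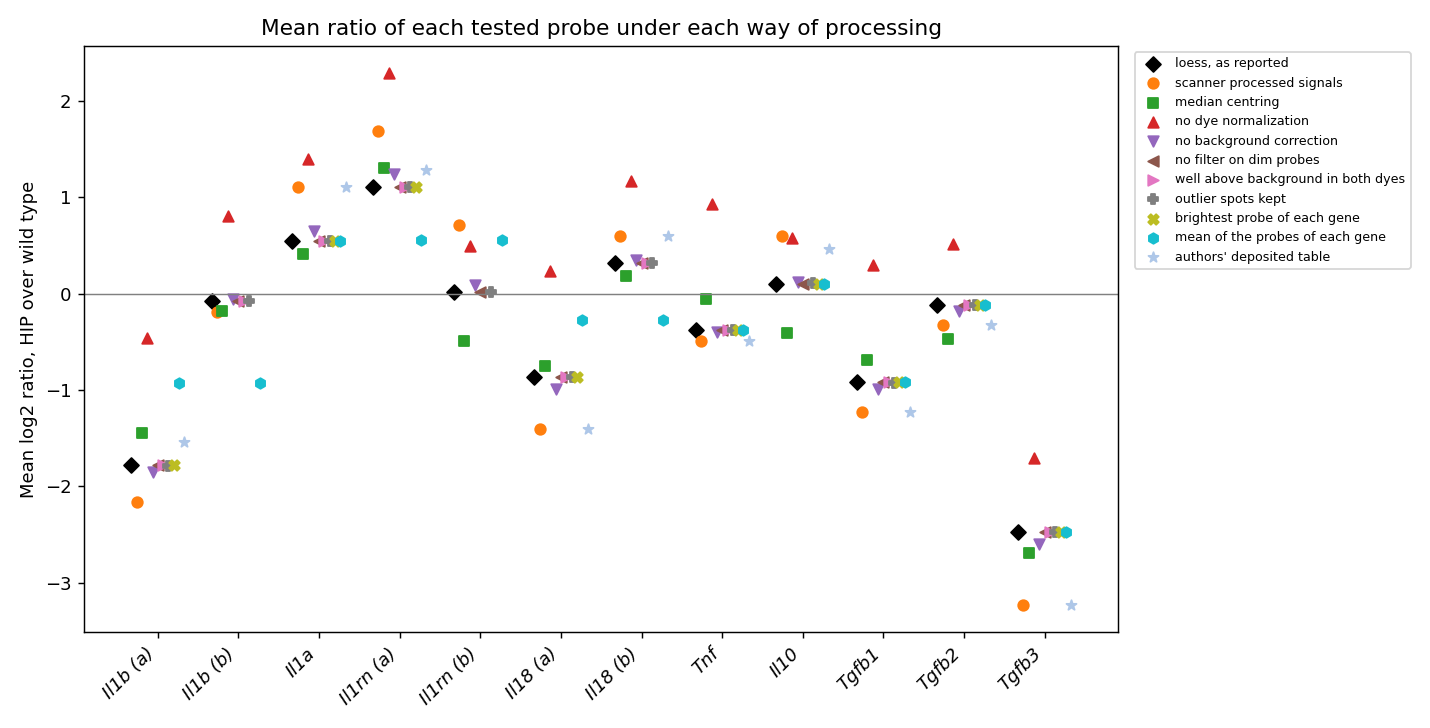
Mean log2 ratio of HIP over wild type (vertical axis) of the 12 tested probes under the processing reported here (black diamonds) and 10 alternatives. Il1b (a) and Tgfb3 lie below 0 and Il1a and Il1rn (a) above 0 throughout; without dye normalization (red triangles) all probes move up, and Tnf, Tgfb1, Tgfb2, Il18 (a) and Il1b (b) lie above 0.

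The receptors, activators, signal relays and targets of these cytokines were followed as 8 lists of 125 genes. Of these, 119 were on the array and 105 were tested, by 132 probes. None passed the test, the lowest adjusted p in limma being 0.942. An unadjusted p under 0.05 was found for 3 probes, against 3.27% of all probes. Of the 132 probes, 69 had opposite signs on the arrays, 30 were higher in HIP on each and 33 were lower on each. Of all tested probes, 50.2% had opposite signs, 26.9% were higher on both arrays and 22.9% were lower. At least 2-fold on both arrays, 3 were higher (2.27%) and 3 were lower (2.27%), close to the shares of all probes. The median log2 ratio was 0.02.

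On the IL-1 side, 13 probes for receptors and regulators divided into 4 higher in HIP on both arrays, 4 lower and 5 opposite, with a median of -0.03. Sigirr, an inhibitory receptor of the IL-1 family, had the brightest probe, with ratios of 2.83 and -2.29. The 12 probes for IL-1 processing and relay divided into 3 higher, 3 lower and 6 opposite, with a median of -0.18. Their brightest probe measured Tollip, an adaptor that dampens IL-1 signalling, at 0.20 and -1.58. The caspase-1 gene, Casp1, did not pass the filter on dim probes. No probe of these 2 lists was 2-fold apart the same way on both arrays.

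On the TNF side, 14 probes divided into 3 higher, 3 lower and 8 opposite, with a median of 0.00 and none 2-fold on both arrays. Ikbkg, the scaffold of the kinase that frees NF-kappaB, stood at -0.48 and -0.37, but at 0.11 and 0.19 with median centring. Among receptors and JAK-STAT relays of IL-6 and IL-10, 7 of 18 probes were higher on both arrays, 2 were lower and 9 opposite. The median of their mean ratios, 0.46, was the highest of the 8 lists, but their medians on array 1 and array 2 were 0.32 and 0.14. Il10rb, a chain of the IL-10 receptor that the array names RGD1560373, had log2 ratios of 1.81 and 3.56, a mean of 2.69 ± 1.24 and an unadjusted p in limma of 0.032. Lif, a cytokine of the IL-6 family, stood at 0.20 and 0.71.

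On the TGF-beta side, the receptor gene Tgfbr2 had a low ratio, as Tgfb1 had, but the receptor genes Tgfbr1 and Tgfbr3 did not. The Tgfbr1 probes had mean log2 ratios of 0.04, 0.07 and 0.28, and the Tgfbr3 probe had 0.10. Tgfbr2 encodes the chain that binds the ligand, and its single probe gave -1.72 and -1.94, a mean of -1.83 ± 0.16, with an unadjusted p in limma of 0.0226 and an adjusted p of 0.942. Without dye normalization it stood at -0.76 and -0.59, and in the authors' deposited table at -1.95 and -3.08. Of the 24 probes for TGF-beta receptors and SMAD relays, 5 were higher on both arrays, 7 lower and 12 opposite, with a median of -0.12. The brightest of them measured Smurf1, which the array names RGD1309707, and had opposite signs, at -0.89 and 2.15. Ski, a repressor of SMAD proteins, gave -1.73 and -5.66 by 1 probe and 0.96 and 1.09 by another. Its remaining probes gave 0.00 and 0.11, and 1.96 and -0.25. Among 17 probes for storage and activation of latent TGF-beta, 2 were higher, 4 lower and 11 opposite. Their brightest probe measured Furin, which the array names Pcsk3, and had opposite signs, at -0.45 and 0.33. Mmp2, a matrix protease, gave 1.04 and 2.12 by 1 probe and 2.28 and -4.05 by another.

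The 18 probes for TGF-beta target genes divided into 4 higher in HIP on both arrays, 3 lower and 11 opposite, with a median of -0.01. Cdkn2b, an inhibitor of the cell cycle that TGF-beta induces, had ratios of 1.34 and 1.52, a mean of 1.43 ± 0.13 and an unadjusted p in limma of 0.0403. Snai1, a transcription factor of mesenchymal change, stood at 0.36 and 0.54. The brightest of 3 probes for the collagen gene Col1a1 stood at 0.37 and -0.16. Among 17 probes of related cytokines, 2 were higher, 7 lower and 8 opposite. The T helper cytokines Il5, at -1.20 and -4.23, and Il13, at -0.67 and -1.55, were lower on both arrays. Without dye normalization, however, Il5 stood at -0.24 and -2.47, and Il13 at 0.76 and 0.20. Il4, a T helper cytokine of the same list, had opposite signs by 1 probe, at -0.14 and 2.52, and stood at 0.11 and 0.04 by the other.

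**Figure D5:**
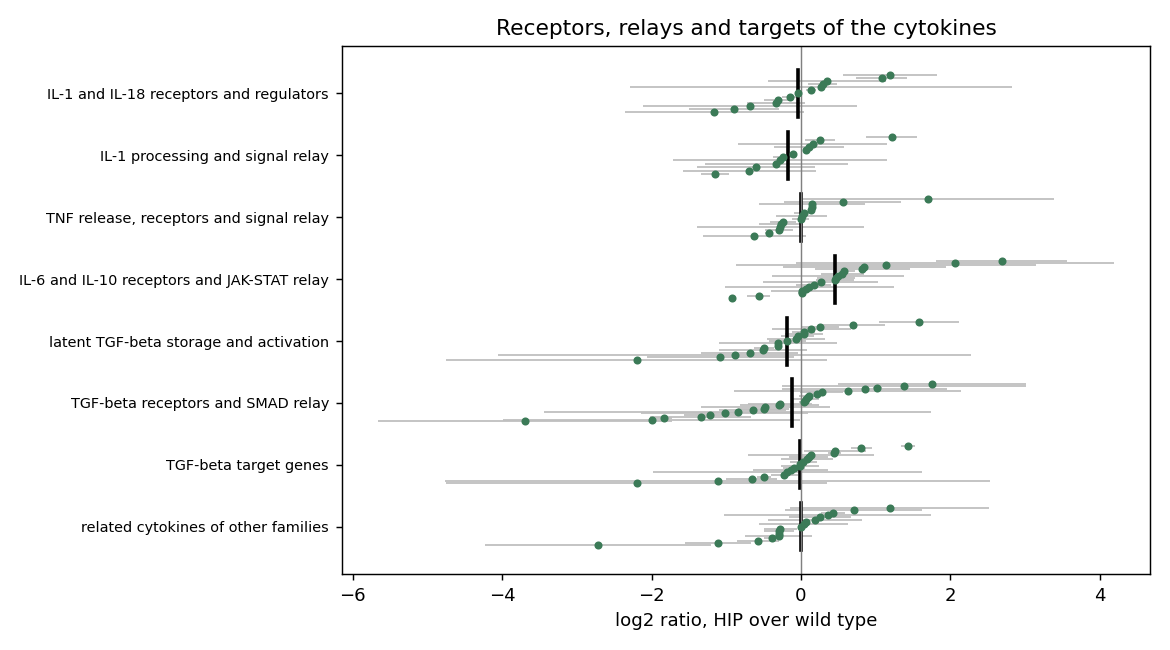
Log2 ratio of HIP over wild type (horizontal axis) of each tested probe in the 8 lists; points are means of the 2 arrays, grey lines join the values of the arrays and black bars are the medians. The medians lie between -0.18 and 0.46, and many grey lines cross 0.

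Cell type markers were read beside these values. All 7 macrophage genes were on the array, and all 10 of their probes were well above background in each of the 4 extracts, with 1 higher in HIP on both arrays, 4 lower, 5 opposite, and a median log2 ratio of -0.19. The log2 of their summed level was 12.21 and 12.75 in HIP, against 12.09 and 13.48 in wild type, so the genotypes overlapped. Of the 7 leukocyte probes, 1 was higher, 1 lower and 5 opposite, and their summed level was 10.81 and 10.20 in HIP, against 10.73 and 11.59 in wild type. Of the 7 tested islet probes, 3 were higher in HIP on both arrays, 3 lower and 1 opposite, with a median ratio of 0.11. The insulin genes Ins1, at -1.18 and -1.02, and Ins2, at -1.04 and -0.85, were lower in HIP on both arrays, although without dye normalization they stood at 0.39 and 0.72 and at 0.69 and 0.88. The summed level of the islet list was 14.40 and 14.38 in HIP, against 15.18 and 15.49 in wild type. This sum gives most weight to the bright probes. The brightest islet probe was that of Ins2, at a level of 13.56 and 13.41 in HIP, against 14.60 and 14.26 in wild type. The tested Chga probe stood at 13.97 in wild type 2, against 9.92 in wild type 1. Sst, at 0.13 and 0.09, Ppy, at 0.93 and 0.19, and Iapp, at 0.51 and 0.10, were higher in HIP on both arrays. The Sst and Iapp probes were dim, and neither was well above background in all 4 extracts. Chga, at -0.06 and -1.63 by its tested probe, was also lower on both arrays. Gcg, at 2.84 and -1.35, had opposite signs. For the acinar, ductal, stellate and fibroblast, and endothelial lists, the summed levels of the genotypes overlapped. Their median log2 ratios were 0.24, -0.25, -0.14 and -0.20, in that order. The part of any cell type in the ratios of the cytokines was not tested.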

How the data were processed

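Spot values come from Agilent Feature Extraction 9.5.1.1, which the authors used, per the file headers. Each deposited scanner file gives mean spot and local background intensity in each dye, and a processed intensity that, per the file headers, is background-subtracted and dye-normalized. The log10 ratio of Cy5 over Cy3 and its p-value from the error model of 1 array are also the software's, per the file headers. The log10 values of the deposited series table carry no stated steps.

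Per the labels' protocols, mRNA was isolated with magnetic beads and its cDNA amplified by a global PCR, which can change the proportions of transcripts. Per the labels, the same amount of amplified cDNA went into each labelling.

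In R 4.3.3 with limma 3.58.1, intensities were corrected with normexp (offset 50) and normalized by loess (span 0.3, control spots at weight 0). Outlier spots were left out and spots of a probe averaged. A probe counted as well above background in a dye where at least 0.5 of its spots were. Of all gene probes, 82.1% were tested against 0 with lmFit and eBayes (1 residual and 1.70 prior degrees of freedom), two-sided. Levels of single dyes used Aquantile normalization after loess. The fit was also run on ratios simulated from its own prior, which cannot show how well it performs on these arrays.

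The 10 genes, the lists and the markers were chosen with earlier results of these data known. All probes of the 10 genes are named. From each list, the probes at least 2-fold the same way on both arrays, up to 3 a direction, and the brightest probe are named; other probes named were chosen after their values were seen. The array files hold probe positions without a genome build, so only distances between probes are given.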

Additional observations from a re-analysis of the deposited data

How the results depend on the processing

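Across 12 other ways of processing, 0 cytokine probes, 0 list probes and 0 of all probes passed the test in limma, with 954 to 5588 probes at an unadjusted p under 0.05. The lowest adjusted p of a cytokine probe was 0.290, without dye normalization. Of 137 recomputed mean ratios of cytokine probes, 129 kept their direction and 8 turned, counting the average of a gene's probes once for each probe. Il1b (a), Il1a, Il1rn (a) and Tgfb3 kept the direction of the mean under all 12, with means of -2.16 to -0.46, 0.42 to 1.40, 1.10 to 2.29 and -3.23 to -1.71. The average of the 2 Il1rn probes was 0.56. Without dye normalization the median of all probes stood at 0.78 and 1.19 on the 2 arrays. The mean then turned to 0.81 for Il1b (b), 0.24 for Il18 (a), 0.93 for Tnf, 0.30 for Tgfb1 and 0.51 for Tgfb2. Centred on that median, these were -0.18, -0.75, -0.06, -0.69 and -0.47. Median centring turned Il1rn (b) to -0.49 and Il10 to -0.41, and averaging the probes of a gene turned Il18 (b) to -0.27. The causes were not tested.

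The count of cytokine probes at least 2-fold higher in HIP on both arrays, 0 as reported, became 1 with the scanner's processed signals and 2 without dye normalization, and lay between 0 and 1 with 1 array left out. The count at least 2-fold lower, 1 as reported, became 3 with processed signals, 2 in the authors' deposited table, and 0 without dye normalization or with the probes of a gene averaged; with 1 array left out it lay between 2 and 3. With 1 array there is no residual degree of freedom, so these are values with no test. With array 1 (replicate 1) left out, and then with array 2 (replicate 2) left out, Il1b (b) stood at -0.62 and 0.48, Il1rn (b) at 0.34 and -0.30, Il18 (b) at 0.66 and -0.0317, Tgfb2 at 0.10 and -0.34, and Tgfb3 at -0.08 and -4.86.

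The test used the ratio within each array, which already pairs 1 HIP with 1 wild-type extract, and no further pairing was possible. The comparison of levels by processed signals was added after seeing the data. Signal limits Il6, Il10 and Il1rn (b), which were near background in at least 1 extract, and 2 arrays limit the precision of all values.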
